A study of Rattus norvegicus with 9 samples.

Results

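The 4 mature miRNAs described here, rno-miR-132-3p, rno-miR-132-5p, rno-miR-212-3p and rno-miR-212-5p, are the arms of 2 hairpins, miR-132 and miR-212, that lie side by side in the rat genome. They were taken by name from the 633 mature miRNAs that the authors counted in small RNA libraries of rat hippocampus, and all 4 had enough counts to be tested, as did 469 of the 633. In the RefSeq annotation of assembly GRCr8 the genes Mir212 and Mir132 follow each other with no annotated gene between them, with Hic1 on one side and a lncRNA gene and Ovca2 on the other. Coordinates are not given because the authors' notes name another build, Rnor_6.0.

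The study gave 30 Sprague-Dawley rats saline, MK-801, or MK-801 followed by clozapine, and asked how hippocampal miRNAs differ after each course. MK-801 (dizocilpine) blocks the NMDA type of glutamate receptor and is used in rodents as a model of schizophrenia, and clozapine is an atypical antipsychotic. The VEH group received saline throughout. The MK-801 group received 0.2 mg/kg of MK-801 a day by intraperitoneal injection for 14 days and then saline for 7 days. In the MK-801+CLO group that course was followed by 7 days at a 10 mg/kg dose, which the group's name and the design text identify as clozapine. No group received clozapine alone. The rats entered treatment at 5 weeks of age per the protocol, while the age field of the labels gives postnatal day 21. Each group has 3 libraries out of 10 rats, and the labels state neither the number of rats behind a library nor that libraries are separate animals. The p-values therefore cover the spread among libraries alone, and part of that spread may be technical.

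MiR-132 and miR-212 are known as products of neuronal activity. A primary transcript that carries both hairpins is switched on by the transcription factor CREB when calcium signals, NMDA receptor signals or the neurotrophin BDNF reach the nucleus, and the mature miR-132 is known to promote dendrite growth and spine formation. The 3p arms are commonly taken as the guide strands that are loaded into the silencing complex, and the 5p arms as the passenger strands. Loading was not measured here, and the counts of the miR-212 arms differed only 1.66- to 2.07-fold.

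The sequences show which of the 4 could act on the same messenger RNAs. A miRNA chooses targets mainly through its seed, bases 2 to 8, which is in capitals below. All 4 mature sequences match between the deposited table and RefSeq (GRCr8), 5′ to 3′:
miR-132-3p: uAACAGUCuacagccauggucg
miR-212-3p: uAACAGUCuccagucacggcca
miR-132-5p: aCCGUGGCuuucgauuguuacu
miR-212-5p: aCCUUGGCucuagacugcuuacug

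The 3p arms share the seed AACAGUC. No other miRNA of the table and no other rat mature miRNA in the RefSeq table had that seed. Counted from the 5′ end, miR-132-3p and miR-212-3p were the same at 17 of 22 bases. The substitutions from miR-132-3p to miR-212-3p were A10C, C14U, U17C, U20C and G22A, all outside the seed. The 5p arms were less alike, with the same base at 14 of the first 22 positions, and their seeds differed at G4U, so that each 5p seed belonged to its own miRNA alone. With 5 differences between the closest pair, miR-132-3p and miR-212-3p, whole mature reads of the 4 can be told apart, although the sources used here do not state how reads with mismatches were assigned.

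Both arms of one hairpin come from a single precursor molecule, which is why their levels can be compared within a library. The miR-132 hairpin of RefSeq (GRCr8) is 101 bases long, with the 5p arm at bases 23 to 44 and the 3p arm at bases 59 to 80, separated by a loop of 14 bases. The arms are in capitals:
Mir132: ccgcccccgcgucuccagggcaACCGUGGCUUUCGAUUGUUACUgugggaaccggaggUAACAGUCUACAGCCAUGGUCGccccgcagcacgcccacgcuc

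Libraries held 10665718 to 18284905 miRNA counts, and the CPM values used here are each library's counts brought to 1 common total, with no length term. All 7 neuronal marker miRNAs were present at a mean of at least 10 CPM, with a summed level of 100358 to 122274 CPM over the 9 libraries, most of it miR-9a-5p. Of 5 markers of liver, muscle, heart and endocrine tissue, 4 were listed, with a sum of 73.3 to 258 CPM. No 2 libraries of a group agreed within sampling noise. VEH replicate 3 stood apart in the 9 choroid plexus and ciliated ependyma markers, at a sum of 10496 CPM against 3731 and 5347 CPM in VEH replicates 2 and 1.

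MiR-132-3p was the most abundant of the 4, at a mean of 1902 CPM over the 9 libraries and rank 52 of the 633 miRNAs. MiR-212-3p followed at 524 CPM (rank 95), miR-212-5p at 291 CPM (rank 123) and miR-132-5p at 213 CPM (rank 138). The order was the same in each of the 9 libraries. The lowest count behind any of these values was 1791, that of miR-132-5p in MK-801+CLO replicate 2, whose level of 168 CPM had a 95% Wilson interval of 160.3 to 175.9 CPM. Such intervals cover counting error only. MiR-132-3p made up 64.8% ± 1.46 (SD, n = 9) of the counts of the 4, with a range of 63.0% to 67.0%. The share of miR-212-3p ran from 15.9% to 20.2%, that of miR-212-5p from 9.04% to 11.1% and that of miR-132-5p from 6.52% to 8.08%. The summed level of the 4 ran from 2402 to 3852 CPM.

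**Figure D1:**
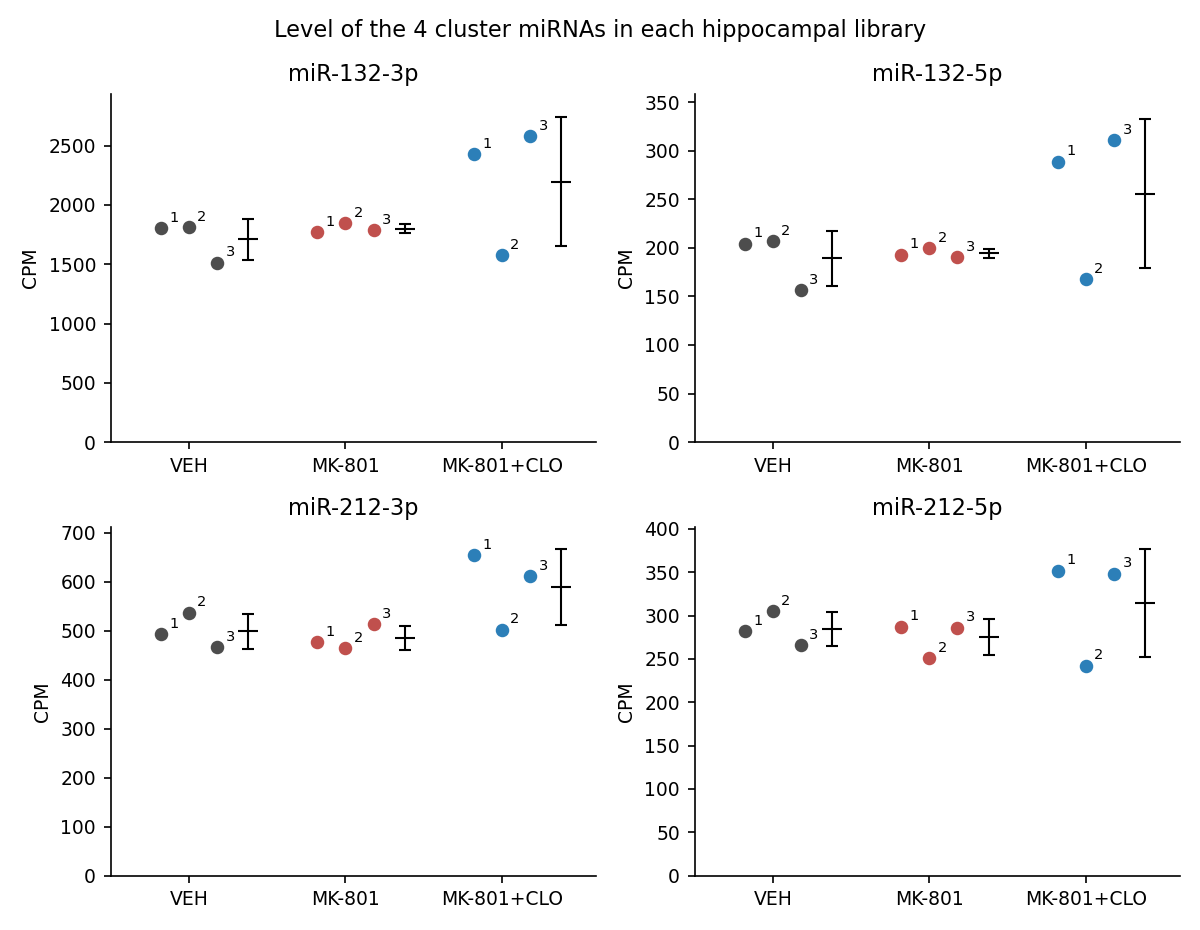
Level of each of the 4 miRNAs in CPM (linear axes from 0) by group. Each point is a library with its replicate number, and the black bars give the group mean ± SD (n = 3). MiR-132-3p stood at 2429 and 2582 CPM in MK-801+CLO replicates 1 and 3 and at 1574 CPM in replicate 2.

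MiR-132-3p, commonly taken as the guide strand of its hairpin, was at 1807, 1815 and 1512 CPM in VEH replicates 1, 2 and 3. In the MK-801 group it was at 1769, 1847 and 1786 CPM. In the MK-801+CLO group it was at 2429, 1574 and 2582 CPM. The MK-801 libraries lay close together and inside or just above the upper VEH values, and 2 of the 3 MK-801+CLO libraries lay above all others, with replicate 2 among the VEH values. Group means were 1712 ± 173 CPM in VEH, 1801 ± 40.8 CPM in MK-801 and 2195 ± 543 CPM in MK-801+CLO (SD, n = 3 each).

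MiR-132-5p, commonly taken as the passenger strand of the same hairpin, was at 204, 207 and 157 CPM in VEH replicates 1, 2 and 3. It was at 193, 199 and 191 CPM in the MK-801 replicates. It was at 289, 168 and 311 CPM in the MK-801+CLO replicates. The same libraries were high and low as for the 3p arm, VEH replicate 3 being the lowest of all 9. The group means were 189 ± 28.4, 194 ± 4.46 and 256 ± 77.0 CPM in the same order (SD, n = 3 each).

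MiR-212-3p, which carries the seed of miR-132-3p, was at 492, 537 and 467 CPM in VEH replicates 1, 2 and 3. The MK-801 replicates had 476, 465 and 513 CPM. The MK-801+CLO replicates had 654, 502 and 611 CPM. MK-801+CLO replicates 1 and 3 were again the 2 highest of the 9 libraries, and replicate 2 lay within the range of the other groups. Group means were 499 ± 35.5, 485 ± 25.2 and 589 ± 78.3 CPM (SD, n = 3 each).

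MiR-212-5p was at 282, 305 and 266 CPM in VEH replicates 1, 2 and 3. It was at 287, 251 and 286 CPM in the MK-801 replicates. It was at 352, 242 and 348 CPM in the MK-801+CLO replicates, so that this group held both the lowest and the highest CPM of the 9, although MK-801 replicate 2 was the lowest after TMM scaling. Its means were 284 ± 19.7, 275 ± 20.8 and 314 ± 62.2 CPM (SD, n = 3 each). For all 4 miRNAs the ranges of any 2 groups overlapped. Over the 469 tested miRNAs the library ranges did not overlap for 13.9% in MK-801 against VEH, 11.5% in MK-801+CLO against MK-801 and 17.5% in MK-801+CLO against VEH. The mean of the MK-801 group lay above that of VEH for both miR-132 arms and below it for both miR-212 arms, by less than the spread between libraries. The seed shared by the 3p arms was carried by a summed 2210 ± 202 CPM in VEH, 2286 ± 35.5 CPM in MK-801 and 2784 ± 615 CPM in MK-801+CLO (SD, n = 3 each).

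MK-801 against VEH asked whether the cluster differed after repeated NMDA receptor blockade and a week without the drug. The log2 fold changes from edgeR were near 0 for all 4, with 2 above and 2 below, while 46.5% of the 469 tested miRNAs were above 0. They were 0.10 ± 0.16 for miR-132-3p, 0.06 ± 0.20 for miR-132-5p, -0.02 ± 0.12 for miR-212-3p and -0.02 ± 0.15 for miR-212-5p (SE, 3 libraries a side). None of the 4 passed an adjusted p of 0.05 in edgeR's quasi-likelihood test (adjusted p = 0.900 to 0.956), and 0 of the 469 miRNAs did (0%). At an unadjusted p under 0.05 there were 24 of the 469 (5.12%) and 0 of the 4. DESeq2 called 1 miRNA (0.213%), which was no member, and limma voom 0.

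The intervals state how large a difference these libraries leave room for. For miR-132-3p the 95% interval of the MK-801 to VEH ratio was 0.831 to 1.37, and for miR-212-3p it was 0.827 to 1.18. The intervals were 0.760 to 1.43 for miR-132-5p and 0.781 to 1.24 for miR-212-5p. The signs of miR-212-3p and miR-212-5p turned with upper-quartile scaling and when VEH replicate 2 or MK-801 replicate 2 was left out, and that of miR-132-5p turned without VEH replicate 3.

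**Figure D2:**
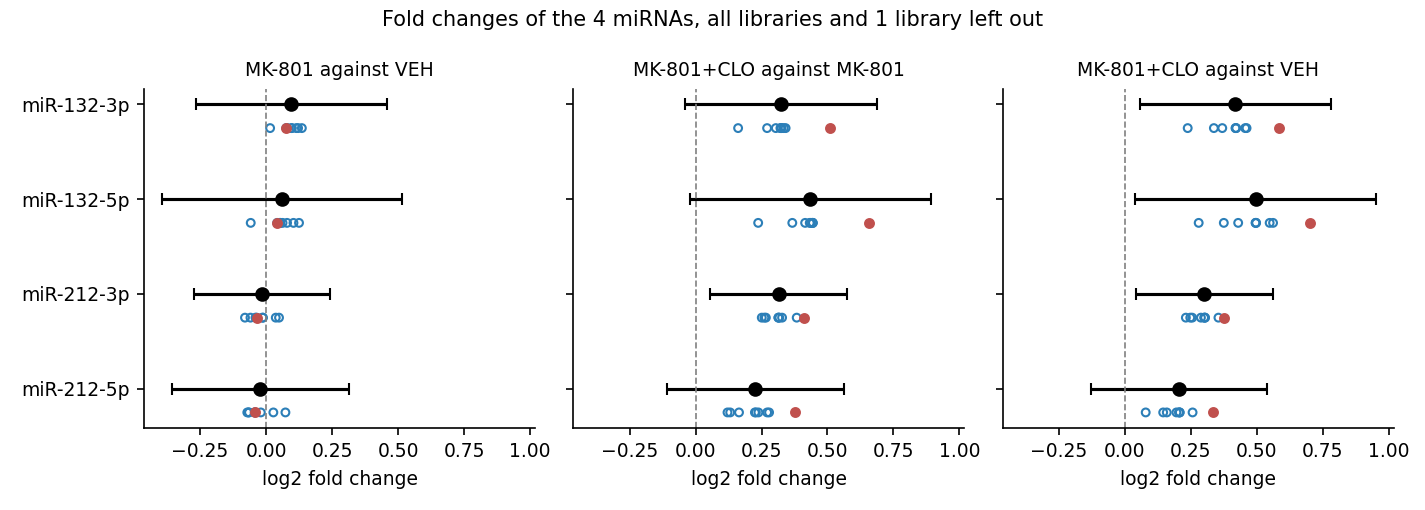
Log2 fold change (x axis) of each miRNA in the 3 comparisons, which share libraries with each other. Black points and bars are the edgeR estimate with its 95% interval, open circles are estimates with 1 library left out, and the red circle is the estimate without MK-801+CLO replicate 2, which for miR-132-5p against VEH was 0.70.

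MK-801+CLO against MK-801 set the clozapine week against a week of saline, since both groups had the MK-801 course. All 4 log2 fold changes were above 0, with a median of 0.32 beside -0.0044 over the 469 miRNAs, of which 48.8% were above 0. The 4 are not independent of each other, because their levels varied together across libraries, as given below. They were 0.32 ± 0.16 for miR-132-3p, 0.43 ± 0.20 for miR-132-5p, 0.32 ± 0.12 for miR-212-3p and 0.23 ± 0.15 for miR-212-5p (SE, 3 libraries a side). None passed the adjusted threshold in edgeR (adjusted p = 0.526 to 0.680), where the calls over all miRNAs numbered 0 of 469 (0%). DESeq2 called 2 miRNAs (0.426%) and limma voom 0, and neither called a member.

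At an unadjusted p under 0.05 there was 1 of the 4 members, miR-212-3p, beside 39 of the 469 miRNAs (8.32%), 22 of them higher (4.69%). Its unadjusted p in edgeR was 0.0220. The count of members was 0 with upper-quartile scaling and without MK-801 replicate 1, MK-801 replicate 2, MK-801+CLO replicate 1 or MK-801+CLO replicate 3. It was 2 with RLE scaling, 3 in DESeq2 and 4 without MK-801+CLO replicate 2. Its ratio had a 95% interval of 1.04 to 1.49. Those of the other 3 reached below 1, as for miR-132-3p at 0.973 to 1.61. Without MK-801+CLO replicate 3 miR-132-3p stood at 0.16, miR-132-5p at 0.24 and miR-212-5p at 0.12 on the log2 scale, and without replicate 2 of that group at 0.51, 0.66 and 0.38. MiR-212-5p stood at 0.13 without MK-801 replicate 2. Upper-quartile scaling, which moved the median of all miRNAs to -0.12, put the 4 at 0.20, 0.31, 0.20 and 0.10 in the order miR-132-3p, miR-132-5p, miR-212-3p and miR-212-5p.

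MK-801+CLO against VEH set the full course against saline, and it held the largest differences of the cluster among the 3 comparisons for the miR-132 arms. In edgeR miR-132-3p was 1.34-fold above VEH (95% interval 1.04 to 1.72) and miR-132-5p 1.41-fold (1.03 to 1.93). MiR-212-3p was 1.23-fold above VEH (1.03 to 1.47) and miR-212-5p 1.15-fold (0.914 to 1.45). On the log2 scale these were 0.42 ± 0.16, 0.49 ± 0.21, 0.30 ± 0.12 and 0.20 ± 0.15 (SE, 3 libraries a side), with a median of 0.36 beside 0.0034 over all 469 miRNAs, of which 50.1% were above 0.

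No member passed the adjusted threshold in edgeR (adjusted p = 0.256 for miR-132-3p and miR-212-3p, 0.288 for miR-132-5p and 0.541 for miR-212-5p), and 0 of 469 miRNAs did (0%). At an unadjusted p under 0.05 there were 3 of the 4 members, all higher, beside 35 of 469 miRNAs on the higher side (7.46%) and 70 in all (14.9%). The levels of the 4 varied together across the 9 libraries (Pearson's r = 0.876 to 0.995), so they do not count as independent results. The unadjusted p-values in edgeR were 0.0279 for miR-132-3p, 0.0365 for miR-132-5p, 0.0277 for miR-212-3p and 0.203 for miR-212-5p. The count of members under 0.05 fell to 0 without VEH replicate 3, MK-801+CLO replicate 1 or MK-801+CLO replicate 3 and with no scaling factors, and was 4 without MK-801+CLO replicate 2. DESeq2 called 3 miRNAs (0.64%) and limma voom 0, with no member among them. Counted from the most positive log2 fold change of the 469, miR-132-5p ranked 16, miR-132-3p 28, miR-212-3p 56 and miR-212-5p 99. Negative changes of a larger size do not count ahead of them in this order.

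Single libraries moved this comparison, and 1 of them decided the call. Leaving out MK-801+CLO replicate 2 put the log2 fold change of miR-132-3p at 0.59 and that of miR-132-5p at 0.70, each at an adjusted p of 0.0466 in edgeR, so that 2 of the 4 passed beside 7 of 476 miRNAs (1.47%), 3 of which were higher (0.63%). MiR-212-3p (0.37, adjusted p = 0.153) and miR-212-5p (0.33, adjusted p = 0.183) did not pass in that edgeR fit. Without MK-801+CLO replicate 3 the log2 fold changes were 0.24, 0.28, 0.23 and 0.08 in the order miR-132-3p, miR-132-5p, miR-212-3p and miR-212-5p. Without VEH replicate 3, the lowest library for both miR-132 arms, the values were 0.34 for miR-132-3p and 0.37 for miR-132-5p.

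A test of any difference among the 3 groups gave the same picture. No member passed in edgeR (adjusted p = 0.400 to 0.658), nor did any of the 469 miRNAs (0%), while DESeq2 called 5 of 450 miRNAs (1.11%) and limma voom 0, no member among them. The unadjusted p in edgeR was 0.0351 for miR-212-3p and above the threshold for the other 3, beside 49 of 469 miRNAs under it (10.4%).

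The ratio between the arms of a hairpin does not depend on how libraries are scaled. MiR-132-3p outnumbered miR-132-5p 9.02 ± 0.463-fold (SD, n = 9), with a range of 8.30 to 9.66. For miR-212 the 3p arm outnumbered the 5p arm only 1.81 ± 0.117-fold (SD, n = 9), with a range of 1.66 to 2.07. The 2 ranges did not overlap. These are ratios of read counts between different sequences, and differences in ligation or amplification between sequences were not tested.

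The miR-132 arm ratio was 9.09 ± 0.495 in VEH, 9.26 ± 0.101 in MK-801 and 8.70 ± 0.591 in MK-801+CLO (SD, n = 3 each). Its lowest values, 8.42 and 8.30, were those of MK-801+CLO replicates 1 and 3, where the cluster was highest. The miR-212 arm ratio was 1.755 ± 0.00746 in VEH, 1.77 ± 0.101 in MK-801 and 1.90 ± 0.161 in MK-801+CLO (SD, n = 3 each). The 3 VEH libraries lay within 1.75 to 1.76, and MK-801+CLO replicate 2 was the highest of all at 2.07.

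Between the hairpins, miR-132-3p outnumbered miR-212-3p 3.43 ± 0.220-fold in VEH, 3.72 ± 0.245-fold in MK-801 and 3.69 ± 0.544-fold in MK-801+CLO (SD, n = 3 each). The 5p arms stood the other way round, with miR-132-5p below miR-212-5p in each library, at ratios of 0.665 ± 0.0690, 0.711 ± 0.0726 and 0.802 ± 0.102 in the same order (SD, n = 3 each). No ratio differed among the groups beyond the spread in an exact permutation test over all assignments of the libraries to the groups (p = 0.343 for the miR-132 arms, 0.364 for the miR-212 arms, 0.596 for the 3p pair and 0.214 for the 5p pair, or 0.486 to 0.596 after Benjamini-Hochberg adjustment over the 4 ratios).

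**Figure D3:**
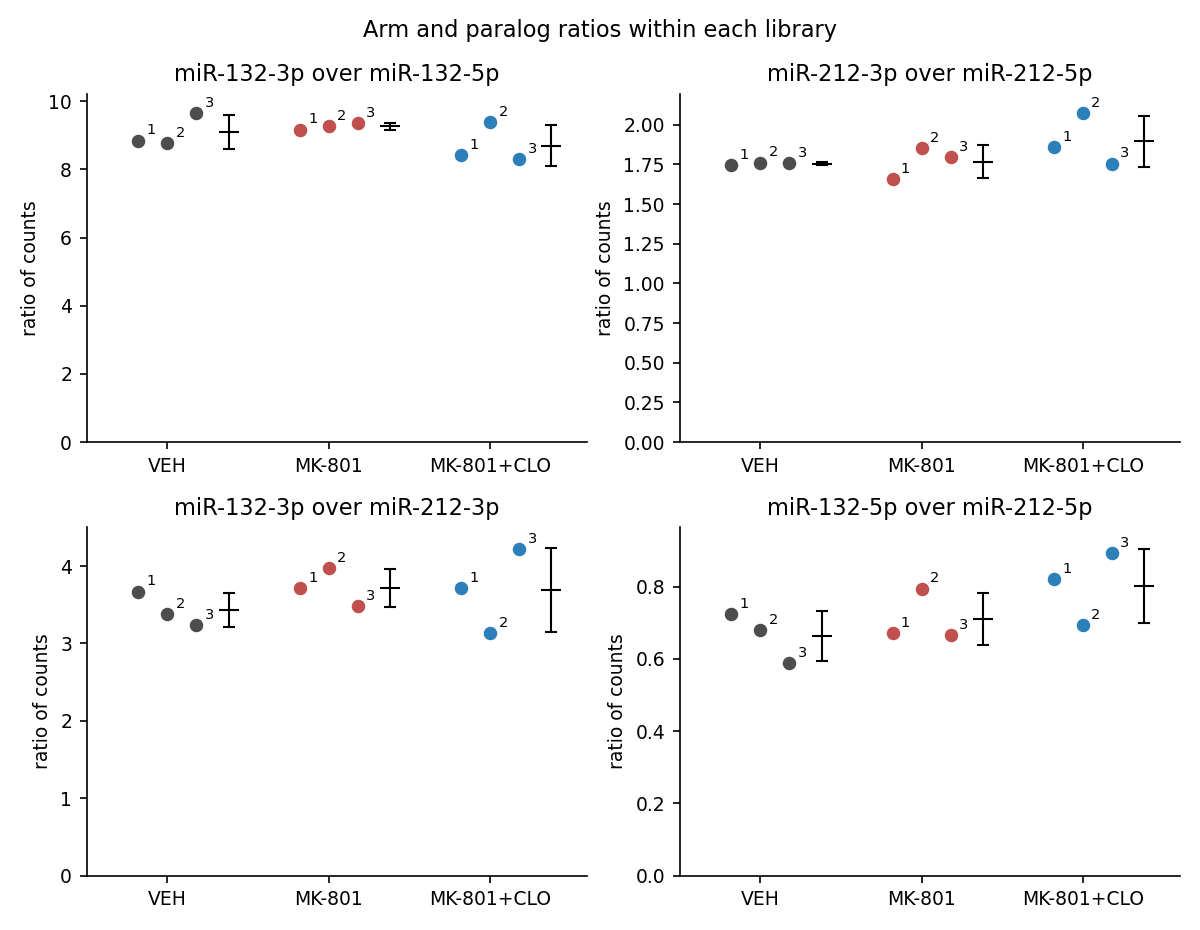
Ratios of counts between arms and between hairpins (linear axes from 0) in each library by group. Each point is a library with its replicate number, and the black bars give the group mean ± SD (n = 3). The miR-132 arm ratio stayed between 8.30 and 9.66 and the miR-212 arm ratio between 1.66 and 2.07.

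The levels of the 4 were compared across the 9 libraries on the log2 CPM scale after TMM scaling (edgeR's library factors), in 6 pairs. The miR-132 arms varied together most closely, at Pearson's r = 0.995 (exact permutation p = 0.000118, adjusted 0.000711 over the 6 pairs, n = 9) and Spearman's rho = 0.917 (exact permutation p = 0.00131, adjusted 0.00787). Without MK-801+CLO replicates 1 and 3, the libraries farthest from the median, r was 0.964 over 7 libraries (exact permutation p = 0.00853, adjusted 0.0512). Within groups, as deviations from the group means over all 9 libraries, r was 0.996, with MK-801+CLO replicate 2 the farthest from the mean of its group for both arms. The relation between the arms of this hairpin thus kept its sign and nearly its size over the 7 libraries, where its adjusted p lay just above 0.05.

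The other 5 pairs behaved differently once those 2 libraries were left out. Over 9 libraries their r lay between 0.876 and 0.898 (exact permutation p = 0.00246 to 0.00753, adjusted 0.00478 to 0.00753), and rho between 0.750 and 0.850 (exact permutation p = 0.00607 to 0.0255, adjusted 0.0162 to 0.0255). Over the remaining 7 libraries r was 0.614 for the miR-212 arms (exact permutation p = 0.142) and 0.334 for the 3p pair (exact permutation p = 0.480), and it lay between 0.348 and 0.530 for the other 3 pairs. All 5 kept their sign, and the size of these relations rests on MK-801+CLO replicates 1 and 3, which were left out for being the most extreme. Over the 7 libraries rho was 0.500 to 0.714 for these 5 pairs. As deviations from the group means over all 9 libraries, r was 0.947 for the miR-212 arms and 0.815 to 0.882 for the other 4 pairs. These deviations still include MK-801+CLO replicates 1 and 3. They also include replicate 2, which lay farthest from the mean of that group for all 4 members. For miR-132-3p it stood at 1631 CPM after TMM scaling, beside 2406 and 2696 CPM in replicates 1 and 3. The r of the deviations without replicate 2 was not tested.

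**Figure D4:**
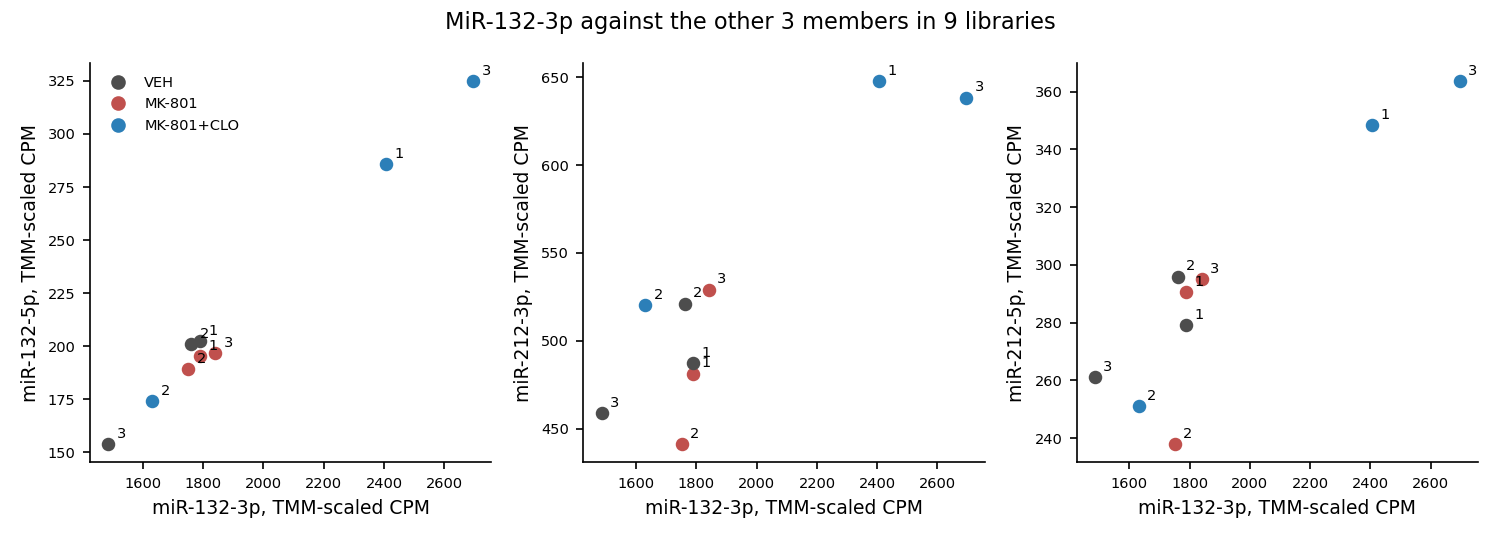
Level of miR-132-3p (x axis) against each of the other 3 miRNAs (y axes) in 9 libraries, as CPM after TMM scaling on linear axes that do not start at 0. Points are libraries coloured by group with their replicate numbers, and MK-801+CLO replicates 1 and 3 lie apart at the upper right, with r = 0.995 for miR-132-5p over all 9.

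The miRNAs whose TMM-scaled log2 CPM was most like that of miR-132-3p over the 9 libraries, among 332 others with a mean of at least 10 CPM, were led by miR-132-5p itself. Of the miRNAs outside the cluster the 5 most alike were miR-124-5p (r = 0.915, rho = 0.917), miR-124-3p (r = 0.914, rho = 0.817), miR-29a-3p (r = 0.913, rho = 0.933), miR-139-5p (r = 0.909, rho = 0.717) and miR-128-3p (r = 0.899, rho = 0.617). MiR-212-5p and miR-212-3p came next, at ranks 7 and 8. MiR-124 is the most typical miRNA of neurons, and miR-128-3p is neuronal as well. Of the 7 neuronal markers, 3 had MK-801+CLO replicates 1 and 3 as their 2 highest libraries (miR-124-3p, miR-128-3p and miR-153-3p), while 3 others were at their lowest of the 9 libraries in replicate 3 (miR-9a-5p at 73353 CPM, miR-9a-3p at 1205 CPM and miR-218a-5p at 1790 CPM). The r of these 5 was 0.292 to 0.832 without MK-801+CLO replicates 1 and 3. They were chosen for their r, which is given as a description beside a median of 0.0246 over the 332, with 9 libraries that share their scaling.

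The 3 most opposite were miR-34c-5p (r = -0.920, rho = -0.783), miR-34b-3p (r = -0.917, rho = -0.650) and miR-34c-3p (r = -0.885, rho = -0.617), from a cluster that promotes motile cilia and is expressed in ependyma and choroid plexus. Their r was -0.677, -0.538 and -0.446 without the same 2 libraries. MiR-34c-5p stood at 533 and 467 CPM in MK-801+CLO replicates 1 and 3 and at 866 to 1759 CPM in the other 7. MiR-124-3p stood at 3847 and 3862 CPM in those 2 libraries and at 2867 to 3501 CPM in the other 7. The sum of the 7 neuronal markers was 122274 CPM in MK-801+CLO replicate 1, the highest of the 9 libraries. In replicate 3 that sum was 103547 CPM, the second lowest of the 9. Of it, 73353 CPM was miR-9a-5p, which is not restricted to neurons.

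**Figure D5:**
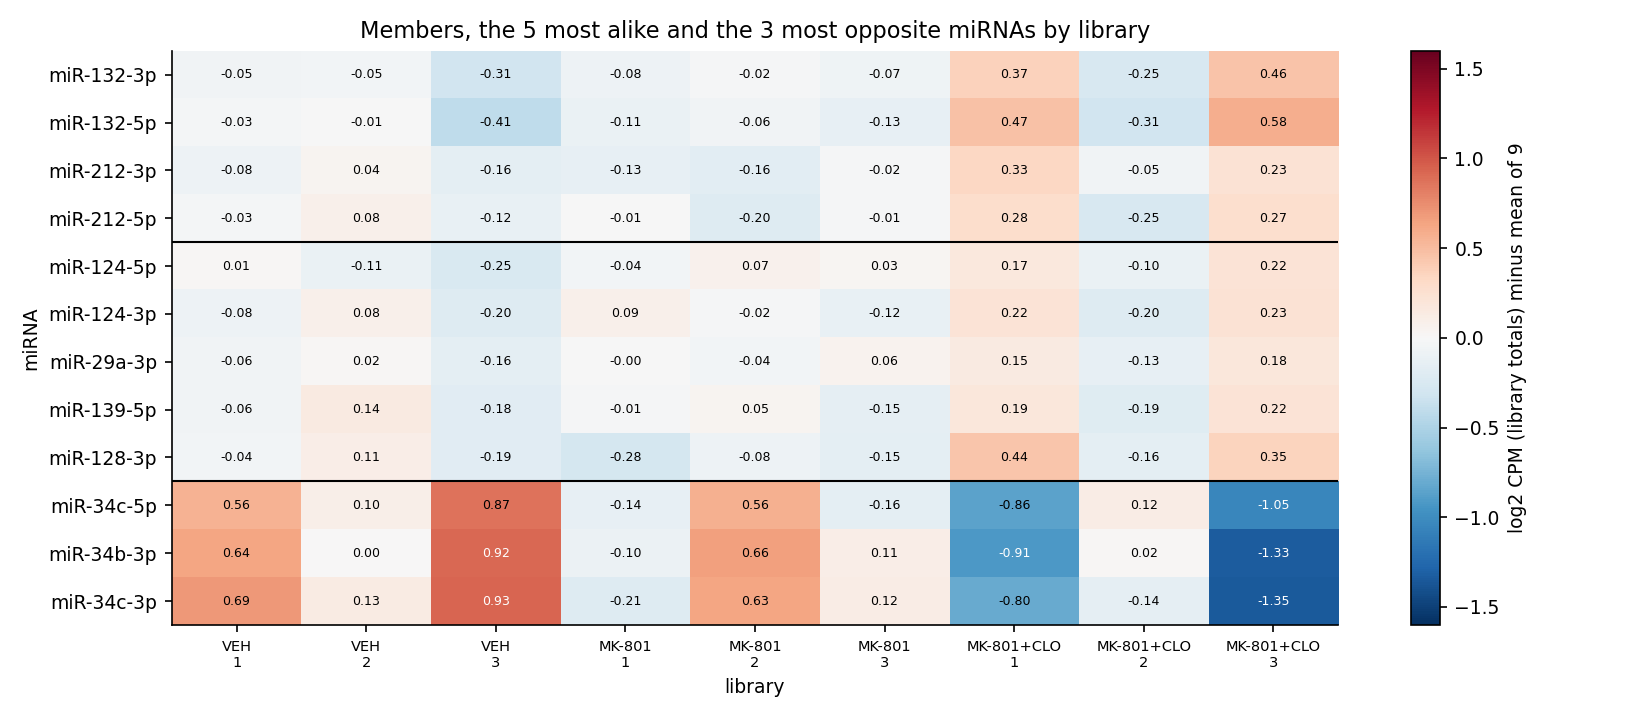
Log2 CPM from library totals, without TMM scaling, minus the mean of the 9 libraries (colour and printed value) for the 4 cluster miRNAs, the 5 most alike and the 3 most opposite miRNAs (rows) in each library (columns). MiR-132-3p and the 5 most alike are highest in MK-801+CLO replicates 1 and 3, where the miR-34b/34c miRNAs are lowest.

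Markers of cell types also moved between the libraries and groups. The 9 choroid plexus and ciliated ependyma markers, 7 of them at a mean of at least 10 CPM and none at 0 throughout, summed to 3731 to 10496 CPM in VEH, 3498 to 4182 CPM in MK-801 and 2415 to 3683 CPM in MK-801+CLO. They were lowest in MK-801+CLO replicates 3 and 1, at 2415 and 2593 CPM, and highest in VEH replicate 3, where the miR-132 arms were lowest. The 4 endothelial and smooth muscle markers summed to 21837 to 25137 CPM in VEH, 22711 to 24163 CPM in MK-801 and 25681 to 30246 CPM in MK-801+CLO.

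The 7 neuronal markers summed to 110192 to 114732 CPM in VEH, 106145 to 114971 CPM in MK-801 and 100358 to 122274 CPM in MK-801+CLO. The 4 oligodendrocyte markers summed to 4371 to 6458, 4342 to 7342 and 4314 to 6506 CPM in the same order. The 4 microglia and leukocyte markers summed to 762 to 885, 758 to 793 and 849 to 1073 CPM. The 4 red blood cell markers summed to 3071 to 3563, 2710 to 3091 and 2973 to 3268 CPM. No marker of these lists was at 0 in all libraries. The part of these shifts in the cluster's values was not tested, and in bulk tissue fewer cells of a type and less RNA per cell cannot be told apart.

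Other miRNAs that respond to neuronal activity or act in synaptic plasticity were given by a list. It shares miR-223-3p with the microglia and leukocyte markers above, and miR-137-3p and miR-218a-5p with the neuronal markers. Of 22 on this list, 21 were tested, and 0 passed the adjusted threshold in edgeR in any of the 3 comparisons. In MK-801+CLO against VEH, 9 lay higher and 12 lower with a median log2 fold change of -0.0149, and 1 had an unadjusted p under 0.05, beside 50.1% of the 469 miRNAs above 0 and 14.9% under 0.05. In MK-801+CLO against MK-801, 10 lay higher and 11 lower (median -0.0288, 1 at an unadjusted p under 0.05), beside 48.8% and 8.32% of the 469. In MK-801 against VEH, 6 lay higher and 15 lower (median -0.0774, 1 at an unadjusted p under 0.05), beside 46.5% and 5.12%. The 1 was miR-187-3p in the first of these and miR-138-5p in the other 2.

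The list's largest differences were mostly those of its less abundant members and of miR-138-5p. Mean levels over the 9 libraries were only 0.919 CPM for miR-188-5p and 1.79 CPM for miR-223-3p, so that their fold changes rest on few reads. MiR-381-3p (4.93 CPM) and miR-183-5p (5.97 CPM) were low as well, beside 150 CPM for miR-187-3p and 134 CPM for miR-485-5p. In MK-801+CLO against VEH they were -0.58 ± 0.19 for miR-187-3p, 0.53 ± 0.34 for miR-223-3p, -0.49 ± 0.40 for miR-188-5p and 0.34 ± 0.16 for miR-381-3p on the log2 scale (SE). In MK-801+CLO against MK-801 miR-138-5p, known to limit the size of dendritic spines, stood at -0.47 ± 0.18, followed by miR-183-5p (-0.44 ± 0.39), miR-381-3p (0.33 ± 0.16) and miR-485-5p (0.27 ± 0.12). In MK-801 against VEH it stood at 0.58 ± 0.18, followed by miR-183-5p (0.41 ± 0.38), miR-223-3p (0.37 ± 0.33) and miR-187-3p (-0.34 ± 0.19). MiR-134-5p, a dendritic miRNA that limits spine size, stood at -0.13 ± 0.15 in MK-801 against VEH and -0.25 ± 0.15 in MK-801+CLO against VEH. No value in this paragraph passed the adjusted threshold in edgeR.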

How the data were processed

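The authors deposited 1 table of whole-number counts per mature miRNA, with further columns headed TPM. These deposited TPM columns match CPM computed from the counts within 0.000473%, without a length term, and are called CPM. Bowtie, cutadapt 1.14, DESeq and the build Rnor_6.0 appear without roles, per the submitters' processing notes. Blank lines (21) were dropped and 1 split name was rejoined. From the counts, edgeR 4.0.16 (R 4.3.3) with filterByExpr, TMM factors of 0.958 to 1.05, 1 mean per group over all 9 libraries and quasi-likelihood tests gave fold changes, with Benjamini-Hochberg adjustment over 469 miRNAs at 0.05. SE comes from the log2 fold change and its F statistic, and intervals use 10.0 degrees of freedom. Log2 CPM for correlations used a prior count of 2. Alternatives used DESeq2 1.42.0 and limma 3.58.1 (voom, and limma-trend with 1 or 0.1 added to CPM before log2), other scalings, filters, a replicate block and libraries left out. Code was tested on simulated data.

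Named are the 4 members, the 5 most alike and the 3 most opposite miRNAs by r with miR-132-3p, and from the list of 22 activity and plasticity miRNAs the 4 with the largest difference in each comparison. MiR-134-5p is outside this rule and was named after its values were seen. The members, lists and markers were chosen with earlier results of these data known. Sequences are from RefSeq (GRCr8), in which 571 of the 633 names were matched.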

Additional observations from a re-analysis of the deposited data

How the results depend on the processing

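The count of the 4 members past the adjusted threshold stayed at 0 under all alternatives in MK-801 against VEH, in MK-801+CLO against MK-801 and in the test of any difference. In MK-801+CLO against VEH it ran from 0 to 2 with 1 library left out, and was 0 otherwise. There, without MK-801+CLO replicate 2, miR-132-3p (0.59) and miR-132-5p (0.70) passed. In both comparisons of MK-801+CLO each log2 fold change stayed above 0 under all 20 alternatives, as did that of miR-132-3p in MK-801 against VEH. In the latter comparison signs turned for miR-132-5p without VEH replicate 3 (-0.058, range to 0.12 with 1 library left out), for miR-212-3p with upper-quartile factors (0.080), at 10 CPM or more (0.0066) and without VEH replicate 2 (0.037) or MK-801 replicate 2 (0.049, range from -0.080), and for miR-212-5p with upper-quartile factors (0.075) and without the same libraries (0.027 and 0.073, range from -0.071). The 3p ratio of miR-132 to miR-212, above VEH in MK-801+CLO, turned without MK-801+CLO replicate 3 (-0.0053 on the log2 scale, range to 0.21). The cause was not tested. Deviations of same-numbered libraries correlated at -0.345 to 0.129, beside -0.235 to 0.275 for other-numbered libraries, and 1 of 9 libraries correlated best with its own number. With 3 libraries a group, these values cannot show whether same-numbered libraries share more than a label. With the replicate block, 0 members passed in each comparison, and the log2 fold changes of MK-801+CLO against VEH were 0.40, 0.47, 0.29 and 0.18 in the order miR-132-3p, miR-132-5p, miR-212-3p and miR-212-5p. Upper-quartile factors shift all miRNAs, whose median went from -0.0175 to 0.074 in MK-801 against VEH and from -0.0044 to -0.12 in MK-801+CLO against MK-801.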

Other observations

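The libraries of the MK-801+CLO group differed more in the miR-132 arms than those of the other groups did. The coefficient of variation of miR-132-3p was 24.7% in MK-801+CLO, 10.1% in VEH and 2.26% in MK-801 (n = 3 each), beside medians of 12.8%, 9.16% and 9.79% over the 333 miRNAs at 10 CPM or more. For miR-132-5p it was 30.1%, rank 28 from the widest of 333 in MK-801+CLO, and 2.29% in MK-801, rank 315. In MK-801+CLO miR-132-3p had rank 51. The miR-212 arms were less wide there, at 19.8% for miR-212-5p (rank 90) and 13.3% for miR-212-3p (rank 161), the latter near the median. MK-801+CLO replicates 1 and 3 were the 2 highest libraries for all 4 members, and for 43 of the 469 tested miRNAs (9.17%). These counts were chosen after the values were seen and were not tested.

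Set against the summed counts of the 7 neuronal markers, an alternative denominator also chosen after the values were seen, miR-212-3p stood at 4.24 to 4.68 per 1000 marker counts in VEH, 4.14 to 4.84 in MK-801 and 5.00 to 5.90 in MK-801+CLO, so that its MK-801+CLO libraries lay above all others, as did those of 9 of the 469 tested miRNAs on this denominator (1.92%). MiR-132-3p stood at 13.7 to 16.0, 15.4 to 17.4 and 15.7 to 24.9 per 1000 in the same order, which overlap. MiR-132-5p and miR-212-5p overlapped as well, at 1.67 and 2.42 per 1000 in MK-801+CLO replicate 2, the lowest of that group. MiR-9a-5p, which is not restricted to neurons, makes up most of this denominator. The denominator was lowest in MK-801+CLO replicates 2 and 3, at 100358 and 103547 CPM. As CPM, miR-212-3p in MK-801+CLO replicate 2 stood at 502, within the range of the other groups. Whether miR-212-3p separates on a denominator without miR-9a-5p was not tested.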
